A study of Mus musculus with 16 samples.

Results

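The genes of antigen presentation and of the interferon response were compared between the left ventricle (LV) of 8 TGAC8 mice and 8 WT mice, with 1 RNA-seq library per mouse. Members were matched by name only, with a fixed pattern of gene symbols. It held H2-, B2m, Cd74, Tap1, Tap2, Tapbp, Ifi, Ifit, Ifitm, Irf, Oas, Gbp, Isg, part of the Stat family, Irgm, Igtp, Ifng, Ifnar and Bst2. Of the names with Ifng the receptor genes Ifngr1 and Ifngr2 matched. In all, 74 of the 11811 genes in the table matched. By function 15 of them belonged to the class I pathway, 6 to the class II pathway and 48 to the interferon system, while 5 carried a matching name only. TGAC8 mice carry a cDNA of human ADCY8, a calcium-stimulated adenylyl cyclase, under the murine α-myosin heavy chain promoter, which is active in cardiac myocytes, on a C57BL/6 background, and WT mice lack it. All mice were males of 3 months, and RNA came from the LV free wall without the septum.

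Class I molecules present peptides from inside the cell to cytotoxic T cells and are made by nearly every cell type, as a heavy chain joined to β2-microglobulin and loaded with peptide in the endoplasmic reticulum. Class II molecules present peptides taken up from outside, and are made mainly by macrophages, dendritic cells and B cells. Interferons of type I signal through Ifnar1 and Ifnar2, and interferon γ through Ifngr1 and Ifngr2. The receptors act through STAT and IRF factors on short promoter elements of antiviral genes, of GTPases that act on intracellular pathogens, and of the presentation genes themselves. In bulk LV tissue, more or fewer cells of a type and more or less RNA per cell cannot be told apart.

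Levels are given in FPKM, a read density scaled to transcript length and library size that the authors computed for each library. FPKM keeps no counts, so the depth behind each value is unknown and precision rests on the spread between the 8 mice of a genotype. From the smallest steps between low values, relative depth was estimated at 0.848 to 1.07 in TGAC8 libraries and 0.91 to 1.09 in WT libraries, as multiples of WT library 8. Apart from that library, each estimate rested on only 4 to 15 genes and is rough. The row of the human ADCY8 cDNA held 412 to 602 FPKM in TGAC8, was listed at 0 in 7 WT libraries, and held 0.345 FPKM in WT library 2. Each gene with a mean of at least 0.5 FPKM was tested with limma on log2(FPKM + 0.1), with Benjamini-Hochberg adjustment over all 11544 such genes. All 74 members passed that filter, and a gene is called here at an adjusted p under 0.05. The log2 fold changes, TGAC8 over WT, are on this scale, on which the change of a gene close to the pseudocount comes out too small.

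Of all tested genes 20.9% were called higher and 4.65% lower in TGAC8, and the median log2 fold change over all of them was 0.12. Against that background 17 of the 74 members were called higher and 3 lower. The interferon genes made up most of the calls, with 15 of 48 higher and 3 lower, and within them 12 of 25 antiviral and other induced genes were higher and 2 lower. Class I had 2 of 15 higher, and in class II none of 6 was called. None of the 10 GTPases was called either. Geometric scaling, which sets each library so that its median gene matches the geometric mean over the 16 libraries, lowered the median of all genes by 0.11 on the log2 scale, and with it 9.74% of all genes were called higher and 10.8% lower. With that scaling 9 members were called higher and 3 lower, all of them interferon genes. In the plot of fold changes by group the antiviral genes had a median log2 fold change of 0.43, and they spanned both ends of the range, from -0.54 for Ifit1bl1 to 1.48 for Ifi27l2a.

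**Figure D1:**
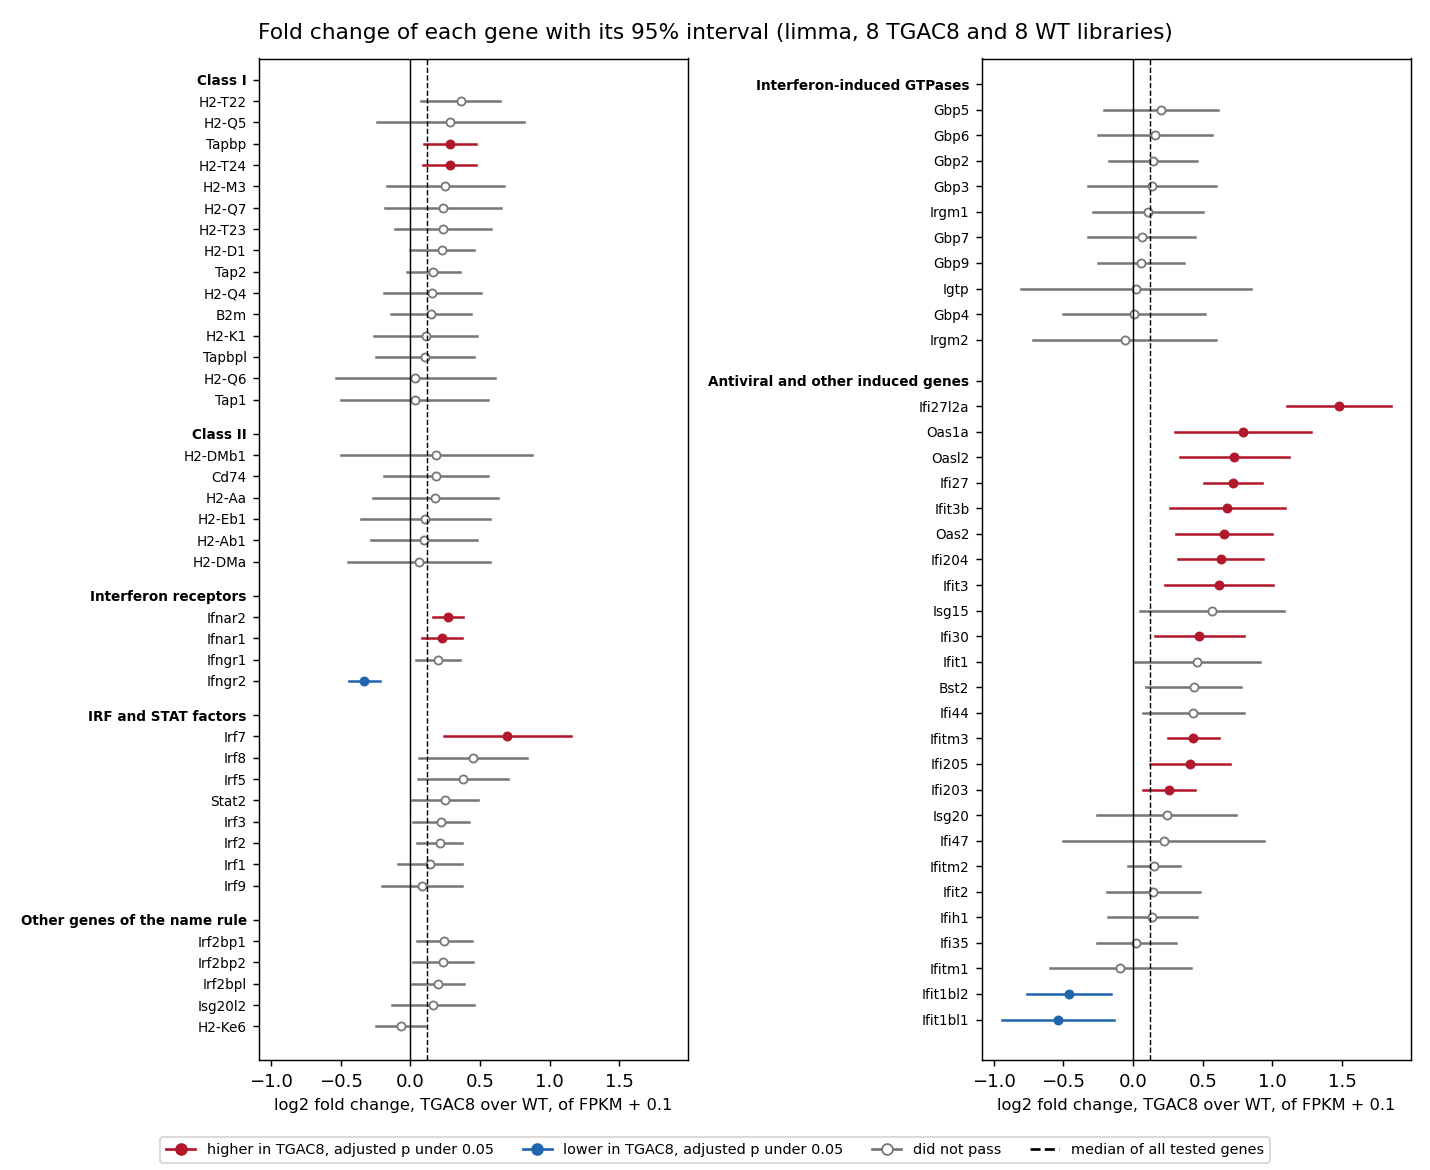
Each point is the log2 fold change of a gene (TGAC8 over WT, of FPKM + 0.1) and each line its 95% interval from limma, with 8 libraries per genotype. Red marks genes called higher in TGAC8, blue genes called lower and open gray points genes that were not called, and the dashed line is the median of all tested genes at 0.12. The largest value is that of Ifi27l2a at 1.48, while no interval of a class II gene or a GTPase excludes 0.

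Promoter stretches are shown here because one short element, found in front of many but not all of the interferon genes, stood before genes that were called and genes that were not. The interferon-stimulated response element (ISRE) is bound by complexes of STAT and IRF factors, and its core was searched on both strands as GAAA followed, after any 2 bases, by another GAAA. This core was added to the search after values of the data had been seen. RefSeq gave windows of 250 bases before to 50 after a start (GRCm38.p6, the mm10 assembly) for 60 of the 74 members. The core was in 3.44% of all 32851 windows and was found for 3.63% of the 8649 tested genes that had a window. Among the members it was found for 25 of 60. All 7 GTPases with a window held it, as did 13 of 21 antiviral genes, 3 of 11 class I genes and 0 of 4 class II genes. It was in the windows of 6 of 12 members called higher, 2 of 3 called lower and 17 of 45 not called. In Ifitm3 and Ifih1 it lay only after the start. A match describes letters only, and binding was not measured. In the stretches below, read 5′ to 3′ on the strand of the gene, capitals mark the match, or its reverse complement where it begins with TTTC.
Ifit3 (called higher, chr19:34583353-34583402, plus strand): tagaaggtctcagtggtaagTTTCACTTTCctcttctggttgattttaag
Oas1a (called higher, chr5:120907526-120907565, minus strand): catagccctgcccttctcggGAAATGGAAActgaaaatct
Ifit1 (not called, chr19:34640765-34640814, plus strand): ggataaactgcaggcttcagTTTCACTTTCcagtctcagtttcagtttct
Gbp2 (not called, chr3:142620584-142620633, plus strand): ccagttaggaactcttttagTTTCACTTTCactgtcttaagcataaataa
Igtp (not called, chr11:58199502-58199551, plus strand): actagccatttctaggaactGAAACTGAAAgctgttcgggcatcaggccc
B2m (not called, chr2:122147528-122147577, plus strand): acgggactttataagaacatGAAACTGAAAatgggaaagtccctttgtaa

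The same letters, TTTCACTTTC, lay in front of Ifit3, which was called, and of Ifit1 and Gbp2, which were not. The match began 156 bases before the start in Ifit3, 104 in Ifit1, 59 in Gbp2, 34 in Igtp, 139 in B2m and 20 in Oas1a. Ifit1 and Ifit1bl2 are transcribed away from each other, with starts 146 bases apart, and 2 ISRE cores lay in the windows of both genes, although Ifit1bl2 was called lower in TGAC8 and Ifit1 was not called. A second element of IRF factors, GAANNGAAA, was found for 17 of 60 members against 7.34% of tested genes, and places of the 2 elements can overlap. The GAS element of STAT dimers, TTCNNNGAA, was found for 17 of 60 members against 8.17% of tested genes.

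Of the 4 receptor genes 2 were called higher in TGAC8 and 1 lower, against 20.9% and 4.65% of all tested genes. Ifngr2, the chain of the interferon γ receptor that brings in the kinase Jak2 (chr16:91547072-91565623 on mm10), was at 34.7, 37.6 and 40.0 FPKM (lowest, median and highest) in TGAC8, against 41.4, 48.4 and 54.2 FPKM in WT. All 8 TGAC8 libraries lay below all 8 WT libraries, a separation found in 1.13% of all tested genes. Its log2 fold change was -0.33 ± 0.053 (SE), with a limma adjusted p of 2.26e-04, and -0.45 with geometric scaling. Ifnar2, a chain of the type I receptor (chr16:91372783-91405589), was at 19.3, 20.3 and 21.1 FPKM in TGAC8 and 14.7, 16.4 and 19.9 FPKM in WT. The lowest TGAC8 library stood above 7 of the 8 WT libraries, and WT library 2 was the exception. The difference was 0.27 ± 0.052 on the log2 scale (limma adjusted p = 9.79e-04), and 0.16 with geometric scaling (adjusted p = 0.0373). Ifnar1, the other chain of that receptor (chr16:91485238-91507441), was at 3.34, 3.61 and 3.92 FPKM in TGAC8, against 2.61, 3.18 and 3.63 FPKM in WT, and 3 TGAC8 libraries lay above every WT library. Its log2 fold change of 0.22 ± 0.068 was called as deposited (limma adjusted p = 0.0221) and not with geometric scaling (0.11, adjusted p = 0.316). Ifngr1, the chain that binds interferon γ, was not called, with means of 13.9 ± 1.70 FPKM in TGAC8 and 12.1 ± 1.01 FPKM in WT (SD, n = 8 each) and a log2 fold change of 0.20 (95% interval 0.040 to 0.36). It passed the threshold without TGAC8 library 2 (limma adjusted p = 0.0280) or 3 (0.0155).

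Ifnar2, Ifnar1 and Ifngr2 lie on one strand of chromosome 16, and Il10rb, a receptor chain shared by interleukin 10 and interferon λ, lies between Ifnar2 and Ifnar1 (chr16:91406164-91425834). Il10rb, which is outside the name pattern, was lower in TGAC8, at 27.1, 28.5 and 31.4 FPKM in TGAC8 and 31.4, 33.35 and 34.8 FPKM in WT, with a log2 fold change of -0.21 (limma adjusted p = 6.24e-04). The genotypes met at 31.4 FPKM. In their order on the chromosome Ifnar2 was called higher, Il10rb lower, Ifnar1 higher and Ifngr2 lower on the deposited scale, and with geometric scaling Ifnar1 was not called. A gene model on the same strand, Gm21970, overlaps both Ifnar2 and Il10rb, so their reads may have been divided.

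Among the transcription factors, Irf7, which drives the genes of type I interferons, was the one gene called of 9. It was at 2.38, 4.24 and 8.34 FPKM in TGAC8 and 2.04, 2.41 and 3.57 FPKM in WT. The genotypes overlapped, with 5 TGAC8 libraries above every WT library and TGAC8 library 1 the highest. The log2 fold change was 0.70 ± 0.22 (limma adjusted p = 0.0255), and with geometric scaling it was 0.58 with an adjusted p of 0.0504. Irf7 overlaps Phrf1 on the opposite strand, and no source used here says whether the counting used strand. Stat2 and Irf9, which take part in the complex that binds the ISRE, had log2 fold changes of 0.25 and 0.08 and were not called. The other 5 IRF genes (Irf1, Irf2, Irf3, Irf5 and Irf8) had log2 fold changes of 0.14 to 0.45, and none was called with all libraries. Irf2 passed the threshold without TGAC8 library 2 or 3 or WT library 5 or 6 (lowest limma adjusted p = 0.0167), Irf5 without TGAC8 library 3 or WT library 2 (0.0229) and Irf8 without TGAC8 library 7 (0.0205).

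A pair of neighboring genes of 1 family were the only members that lay higher in all TGAC8 libraries than in any WT library. Ifi27l2a and Ifi27 encode small membrane proteins of the interferon-induced ISG12 family, and lie side by side on chromosome 12. Ifi27l2a (chr12:103442167-103443680, minus strand) was at 33.2, 38.8 and 50.04 FPKM in TGAC8, against 6.69, 13.6 and 22.9 FPKM in WT. Every TGAC8 library was above every WT library, as in 4.79% of all tested genes, and the means differed 2.68-fold. On the log2 scale this was 1.48 ± 0.18 (limma adjusted p = 1.17e-05), and 1.36 with geometric scaling. Ifi27 (chr12:103434211-103440239, plus strand) was at 8.12, 10.1 and 14.7 FPKM in TGAC8 and 5.70, 6.25 and 7.53 FPKM in WT. Its genotypes did not overlap as deposited but did with geometric scaling, where the gene was still called (log2 fold change 0.60, adjusted p = 2.09e-04). As deposited the log2 fold change was 0.72 ± 0.097 (limma adjusted p = 3.98e-05). The table gives both genes the same locus, so how reads were divided between them is uncertain.

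The oligoadenylate synthetases sense double-stranded RNA and make the adenylate chains that activate RNase L. They were called higher in 3 of 3 cases as deposited and with geometric scaling, against 20.9% and 9.74% of all tested genes. Oas1a (chr5:120896256-120907521) was at 0.683, 1.16 and 2.04 FPKM in TGAC8 and 0.328, 0.650 and 1.34 FPKM in WT. The genotypes overlapped, 3 TGAC8 libraries were above every WT library, and WT library 2 was the highest of its genotype. It differed by 0.79 ± 0.23 on the log2 scale (limma adjusted p = 0.0193). Oas2 was at 1.34, 2.06 and 2.80 FPKM in TGAC8 and 0.899, 1.18 and 1.97 FPKM in WT, with 5 TGAC8 libraries above every WT library. It differed by 0.66 ± 0.16 on the log2 scale (limma adjusted p = 0.00719). Oasl2 (chr5:114896936-114912234), a relative with ubiquitin-like domains, was at 2.55, 3.21 and 5.50 FPKM in TGAC8 and 1.20, 2.02 and 3.10 FPKM in WT. In 6 TGAC8 libraries it exceeded all WT libraries, and TGAC8 library 1 stood far above the rest. The difference was 0.73 ± 0.19 on the log2 scale (limma adjusted p = 0.00866).

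**Figure D2:**
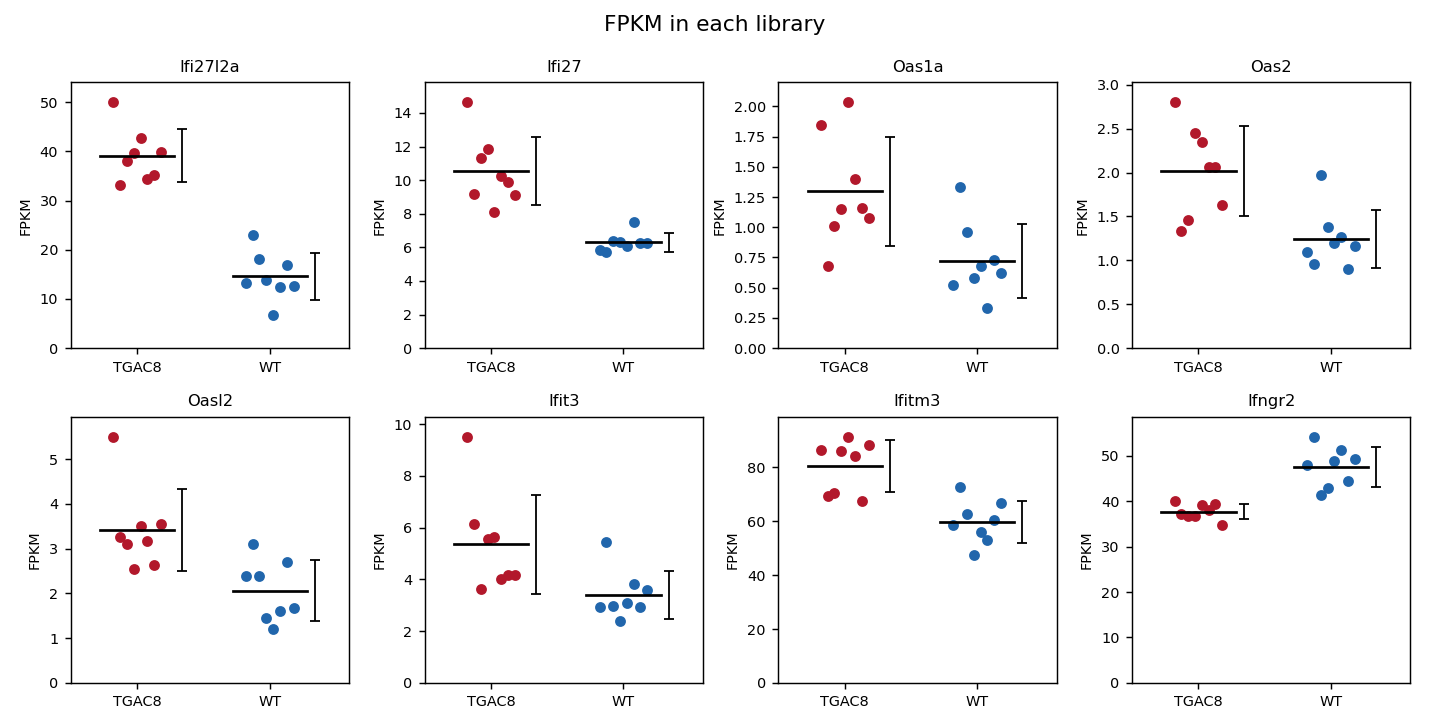
Each point is 1 library and the vertical axes give FPKM from 0, with TGAC8 at the left and WT at the right of each panel. Horizontal lines are means and the bars beside them show 1 SD over 8 libraries. Ifi27l2a and Ifi27 lie higher in all TGAC8 libraries and Ifngr2 lower in all of them, whereas the other 5 genes overlap between genotypes.

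Ifitm proteins sit in membranes and hinder the entry of enveloped viruses. Ifitm3 (chr7:141009586-141010770), the most abundant of the interferon genes, was at 67.4, 85.2 and 91.4 FPKM in TGAC8 and 47.5, 59.5 and 72.8 FPKM in WT. Here 7 WT libraries were below the lowest TGAC8 library, and WT library 2 was not. Ifitm3 differed by 0.43 ± 0.087 on the log2 scale (limma adjusted p = 0.00150), and 0.32 with geometric scaling (adjusted p = 0.0115). Ifitm2 (chr7:140954837-140955987) was at 15.9, 21.2 and 27.9 FPKM in TGAC8 and 16.6, 18.8 and 22.7 FPKM in WT, the genotypes overlapped widely, and the gene was not called (log2 fold change 0.15, 95% interval -0.037 to 0.34). Ifitm1, at 1.15 ± 0.384 FPKM in TGAC8 and 1.26 ± 0.492 FPKM in WT (SD, n = 8 each), was not called either.

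The Ifit genes, whose proteins bind foreign RNA through tetratricopeptide repeats, differed among themselves. Of the 6 genes 2 were called higher and 2 lower, against 20.9% and 4.65% of all tested genes. Ifit3 was at 3.62, 4.86 and 9.52 FPKM in TGAC8 and 2.37, 3.04 and 5.44 FPKM in WT, and 6 WT libraries were below the lowest TGAC8 library. On the log2 scale it differed by 0.61 ± 0.18 (limma adjusted p = 0.0208), and 0.50 with geometric scaling (adjusted p = 0.0581). Ifit3b, a near-identical copy, differed by 0.68 ± 0.20 (limma adjusted p = 0.0174), and reads may have been divided between the copies. Ifit1bl2 (chr19:34617049-34640743), a relative of Ifit1, was at 0.601, 0.867 and 0.957 FPKM in TGAC8 and 0.745, 1.22 and 1.6 FPKM in WT. In 7 WT libraries it was above every TGAC8 library, and WT library 7 was the exception. A log2 fold change of -0.46 ± 0.14 was called (limma adjusted p = 0.0254). Ifit1bl1 (chr19:34592891-34601956) was at 0.543, 0.754 and 1.18 FPKM in TGAC8 and 0.637, 1.30 and 1.64 FPKM in WT, with a log2 fold change of -0.54 ± 0.19 (limma adjusted p = 0.0461). The Ifit1bl1 call was lost when any 1 of 12 libraries was left out (TGAC8 1, 2, 3, 4, 7 or 8, or WT 2, 4, 5, 6, 7 or 8), with adjusted p-values of up to 0.0899. Ifit1, which blocks the translation of viral RNA, was at 1.67, 2.90 and 4.74 FPKM in TGAC8 and 1.27, 2.01 and 3.30 FPKM in WT, and was not called (log2 fold change 0.46, limma adjusted p = 0.121). The table gives Ifit1, Ifit1bl1, Ifit1bl2 and Ifit3b 1 shared locus.

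Among the genes named Ifi with a number, 6 of 9 were called higher, against 20.9% of all tested genes, and none lower. With geometric scaling 3 of them remained called, against 9.74% of all tested genes called higher. Ifi204, which belongs to the PYHIN family of nucleic acid-binding proteins, was at 2.72, 3.80 and 6.07 FPKM in TGAC8 and 1.95, 2.46 and 3.37 FPKM in WT. In 7 TGAC8 libraries it exceeded every WT library, with a log2 fold change of 0.63 ± 0.15 (limma adjusted p = 0.00427). Ifi205 and Ifi203, of the same family, differed by 0.41 ± 0.14 and 0.26 ± 0.088 on the log2 scale (limma adjusted p = 0.0340 and 0.0418). Both lost the call with geometric scaling, with adjusted p-values of 0.150 for Ifi205 and 0.286 for Ifi203. The Ifi205 call was also lost without TGAC8 library 1, 4, 7 or 8 or WT library 4 (adjusted p up to 0.0659), and the Ifi203 call without TGAC8 library 1, 4, 5, 6, 7 or 8 or WT library 1, 3, 5, 6 or 8 (up to 0.0800). Ifi30, the lysosomal thiol reductase that opens disulfide bonds of antigens bound for class II, was at 2.64, 3.72 and 4.63 FPKM in TGAC8 and 1.38, 2.89 and 3.23 FPKM in WT. It exceeded every WT library in 7 TGAC8 libraries, and TGAC8 library 2 lay among the WT values. The log2 fold change was 0.47 ± 0.15 (limma adjusted p = 0.0284), and 0.36 with geometric scaling (adjusted p = 0.0986), and without TGAC8 library 1, 7 or 8 or WT library 4 the adjusted p reached up to 0.0558. Oas2, Ifit3, Ifit3b, Ifi204, Ifi205, Ifi203, Ifi30, Irf7, Ifnar1 and Ifnar2, and the named genes that were not called and are not among the most abundant, were chosen for the text after their values were seen.

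The other induced genes were not called with all libraries. Isg15, a ubiquitin-like protein joined to other proteins, was at 1.58, 2.47 and 4.06 FPKM in TGAC8 and 0.981, 1.76 and 3.56 FPKM in WT, with a log2 fold change of 0.57 (95% interval 0.048 to 1.085). Bst2, which tethers budding virus to the cell surface, differed by 0.43 (0.091 to 0.78), and Ifi44 by 0.43 (0.071 to 0.80). Isg15 passed the threshold without WT library 3 (limma adjusted p = 0.0259), Bst2 without TGAC8 library 2 (0.0303) or WT library 6 (0.0381), and Ifi44 without TGAC8 library 7 (0.0257). Ifih1, a sensor of double-stranded RNA, differed by 0.14 (-0.18 to 0.46). Isg20, Ifi47, Ifit2 and Ifi35 had log2 fold changes of 0.02 to 0.24.

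Summed over the 25 antiviral and other induced genes, the level was 184, 214 and 259 FPKM in TGAC8 (lowest, median and highest library) and 129, 148 and 176 FPKM in WT. The genotypes did not overlap as deposited. With geometric scaling the sums were 178 to 232 in TGAC8 and 131 to 184 in WT, and WT library 2 then lay above TGAC8 library 7. Without Ifitm3 and Ifi27l2a, the most abundant pair over all 16 libraries, the sums were 81.6, 90.1 and 122 FPKM in TGAC8 and 68.0, 73.7 and 79.9 FPKM in WT, and again all TGAC8 libraries were higher as deposited, but with geometric scaling 6 of 8 were above the highest WT library. The scaling of the sums was chosen after seeing the data. These sums are a description and were not tested. Markers of macrophages and monocytes also differed between the genotypes, with 10 of 12 called higher, against 20.9% of all tested genes. Their summed levels were 136 to 201 FPKM in TGAC8 and 102 to 133 FPKM in WT. Fibroblast markers were called higher in 8 of 9 cases, with sums of 192 to 349 FPKM in TGAC8 and 157 to 181 FPKM in WT. With geometric scaling 8 macrophage and 8 fibroblast markers were called higher as well, against 9.74% of all tested genes. The part of either cell type in the interferon genes was not tested.

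**Figure D3:**
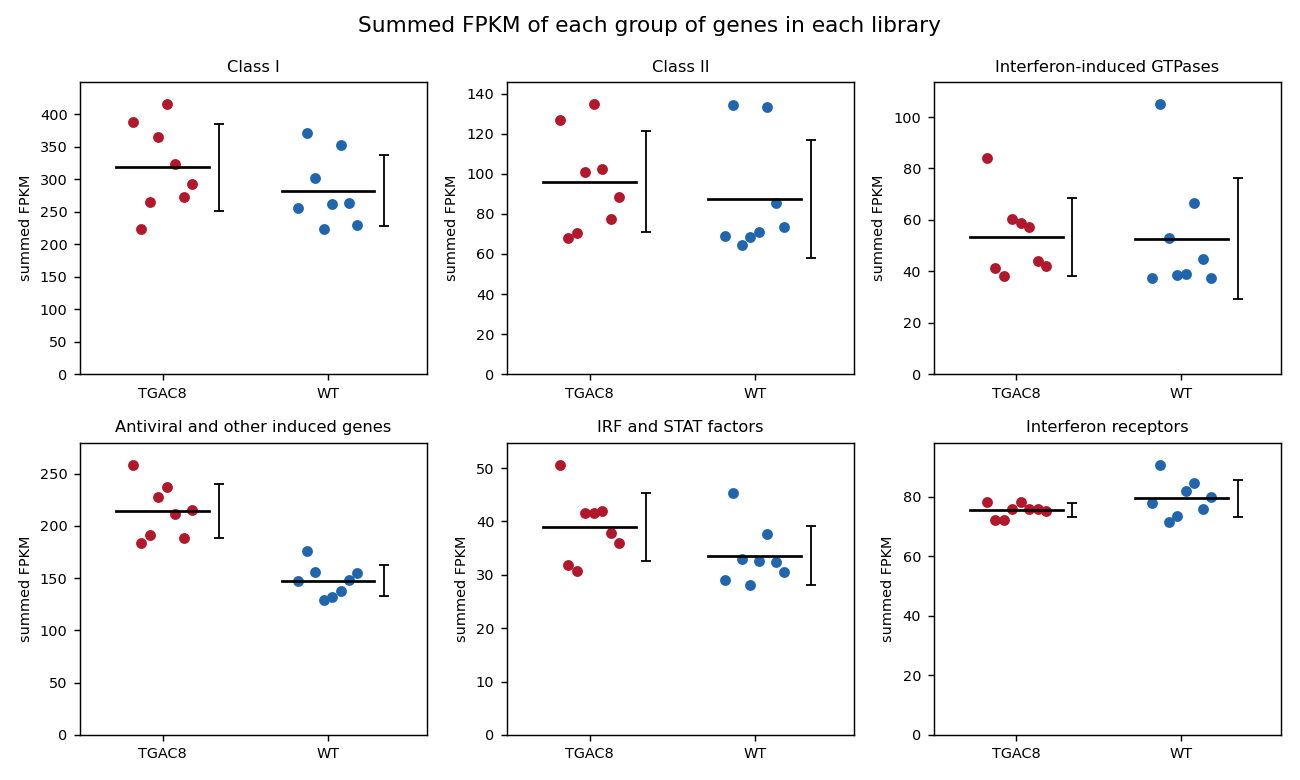
Each point is the summed FPKM of a group of genes in 1 library, from 0, with TGAC8 at the left and WT at the right. Horizontal lines are means and the bars show 1 SD over 8 libraries. On the deposited scale the antiviral sums separate at 184 FPKM and above in TGAC8 and 176 FPKM and below in WT, and the class I, class II and GTPase sums overlap, with WT library 2 at 105 FPKM in the GTPases.

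The GTPases of the Gbp and Irgm families, which are known from mouse cells as strongly induced by interferon γ and which attack vacuoles that hold pathogens, showed no call in either direction, and at an unadjusted p under 0.05 also none. The rank-sum test with the same adjustment called none of them. Their log2 fold changes were -0.06 to 0.20 with a median of 0.09, which turned to -0.03 with geometric scaling. The intervals were wide, and over the 10 genes they reached from -0.80 to 0.84. Igtp was at 3.87, 6.12 and 10.5 FPKM in TGAC8 and 2.77, 5.06 and 25.4 FPKM in WT. WT library 2 at 25.4 FPKM and WT library 6 at 14.6 FPKM were above every TGAC8 library. Irgm2, which overlaps Igtp on the same strand, was at 3.29, 4.66 and 8.84 FPKM in TGAC8 and 3.18, 3.88 and 17.4 FPKM in WT. Gbp2 was at 4.41, 6.17 and 10.1 FPKM in TGAC8 and 4.36, 5.51 and 8.69 FPKM in WT, with TGAC8 library 1 and WT library 2 the highest of their genotypes.

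The spread of the GTPases followed single libraries. WT library 2 was the highest of 8 WT libraries in 10 of 10 GTPases, and TGAC8 library 1 the highest of 8 TGAC8 libraries in 9 of 10. Without WT library 2 the median log2 fold change of the 10 genes was 0.23, and without TGAC8 library 1 it was -0.02, and no GTPase was called in any fit that left out 1 library. Igtp then differed by 0.32 without WT library 2 (95% interval -0.32 to 0.96), against 0.02 with all libraries. TGAC8 library 1 was also the highest of its genotype in 14 of the 25 antiviral genes. WT library 2 was the highest WT library in 9 of 15 class I genes and 4 of 6 class II genes too.

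**Figure D4:**
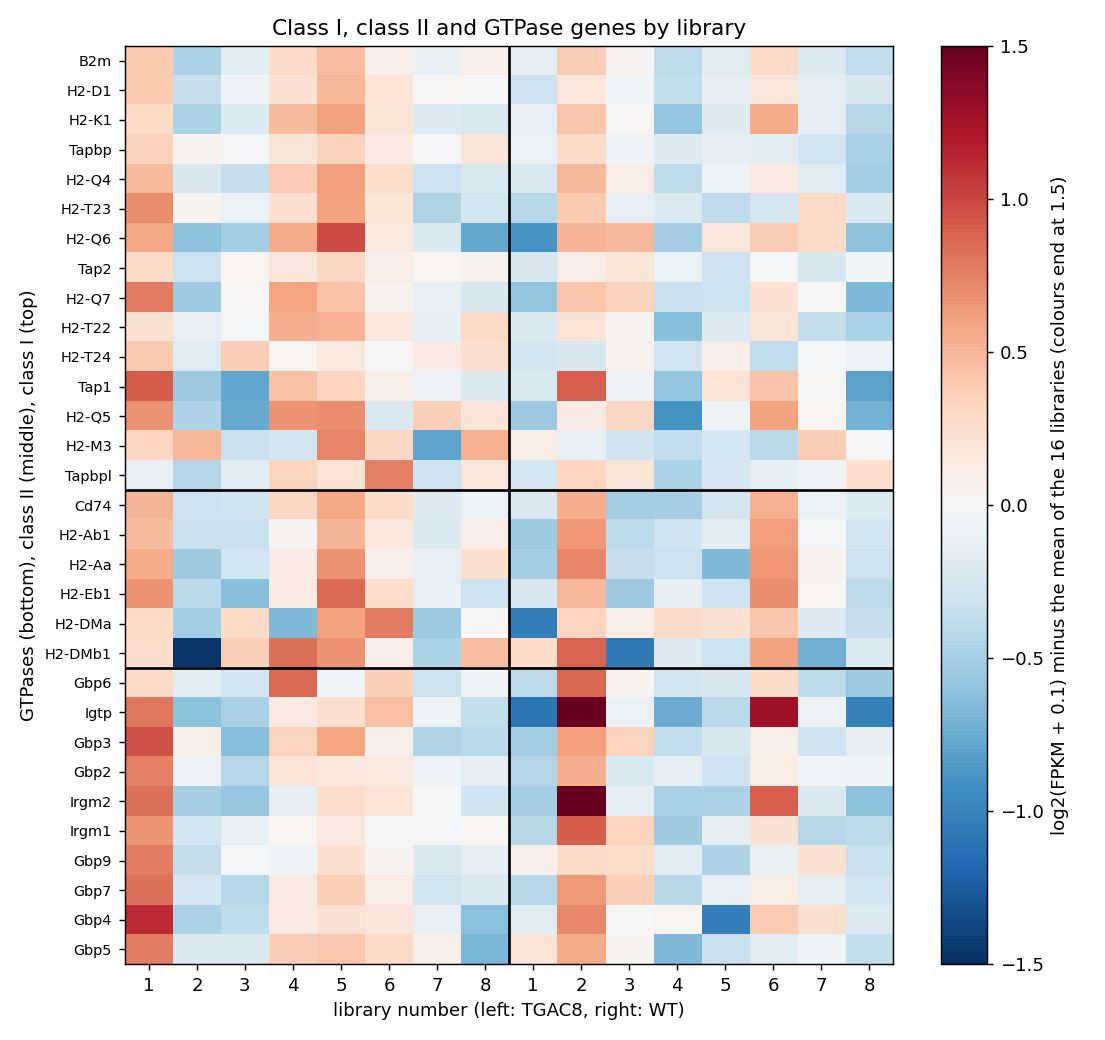
Rows are the 15 class I genes, 6 class II genes and 10 GTPases, columns are the 8 TGAC8 and 8 WT libraries, and colors give log2(FPKM + 0.1) minus the mean of the 16 libraries for each gene, with red above and blue below that mean. WT library 2 was the highest of its genotype in 10 of 10 GTPases and TGAC8 library 1 in 9 of 10, and WT libraries 2 and 6 were the highest pair in 6 of 6 class II genes.

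Class I genes were called in 2 of 15 cases, both higher and both lost with geometric scaling. Tapbp, or tapasin, which holds empty class I molecules at the peptide transporter (chr17:33915899-33929292), was at 11.9, 13.5 and 15.5 FPKM in TGAC8 and 8.63, 10.95 and 14.7 FPKM in WT. The lowest TGAC8 library exceeded 7 WT libraries, and WT library 2 was among the TGAC8 values. Tapbp differed by 0.29 ± 0.088 on the log2 scale (limma adjusted p = 0.0235), and 0.17 with geometric scaling (adjusted p = 0.162). Tapbp shares its locus in the table with Zbtb22. H2-T24, a class I gene outside the classical K, D and L series (chr17:36005695-36020560), was at 3.57, 4.47 and 5.35 FPKM in TGAC8 and 3.12, 3.61 and 4.345 FPKM in WT, with 5 TGAC8 libraries above every WT library. H2-T24 differed by 0.28 ± 0.090 on the log2 scale (limma adjusted p = 0.0279), and 0.17 with geometric scaling (adjusted p = 0.172). Its call was lost without TGAC8 library 1, 3 or 8 or WT library 1, 2, 4 or 6, with adjusted p-values of up to 0.0563. The table gives it the locus of H2-T23, which was not called.

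The classical heavy chains and β2-microglobulin were by far the most abundant of the class I genes and were not called. B2m, the light chain (chr2:122147686-122153083), was at 108, 159 and 206 FPKM in TGAC8 and 115, 134 and 194 FPKM in WT, and both extremes belonged to TGAC8. The log2 fold change was 0.15 (95% interval -0.14 to 0.43). H2-D1 (chr17:35262730-35267499) was at 35.5, 48.9 and 63.9 FPKM in TGAC8 and 35.1, 40.8 and 50.6 FPKM in WT, with 4 TGAC8 libraries above every WT library. It missed the threshold at a log2 fold change of 0.23 ± 0.11 (limma adjusted p = 0.139), and passed it when TGAC8 library 2 was left out (0.29, adjusted p = 0.0364). H2-K1 (chr17:33996017-34000347) was at 29.99, 42.0 and 63.5 FPKM in TGAC8 and 27.9, 38.3 and 61.5 FPKM in WT. The ranges were nearly the same, and the log2 fold change of 0.11 (95% interval -0.26 to 0.48) turned to -0.0058 with geometric scaling. Tap1 and Tap2, the chains of the peptide transporter, differed by 0.03 and 0.16, Tapbpl, a relative of tapasin, by 0.11, and the remaining heavy chains by 0.04 to 0.36. Without TGAC8 library 2, the lowest TGAC8 library in 7 of the 15 class I genes, 5 of the 15 were called higher, with H2-D1, H2-T22 and Tap2 added. That fit called 2654 of the 11544 tested genes higher, against 2417 with all libraries. H2-T22 was also called without TGAC8 library 7 or WT library 2 or 6, with a lowest limma adjusted p of 0.0339. Without TGAC8 library 1, 3 or 8 or WT library 1 or 4 the class I count was 1, and 2100 to 2567 of all tested genes were called higher. H2-Q6 and H2-Q7 are near-identical copies and their reads may have been divided.

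The promoters of H2-K1 and H2-D1 are printed because several heavy chains hold an element that the ISRE search missed. The heavy chains H2-T22 and H2-T23 lacked that element and held the ISRE core. The IRF element GAANNGAAA was found for 6 of 11 class I genes (H2-D1, H2-K1, H2-M3, H2-Q4, H2-Q6 and H2-Q7), against 7.34% of tested genes, and begins 90 bases before the start in H2-K1 and 150 before the start in H2-D1. Over the 49 bases shown the genes agreed at 48, and the capitals mark the match, here as its reverse complement.
H2-K1 (not called, chr17:34000409-34000457, minus strand): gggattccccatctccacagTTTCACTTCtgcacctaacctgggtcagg
H2-D1 (not called, chr17:35262924-35262972, plus strand): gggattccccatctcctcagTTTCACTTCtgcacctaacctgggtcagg

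None of the 6 class II genes was called, none had an unadjusted p under 0.05, and the rank-sum test called none. Cd74, the invariant chain that guides class II molecules to the endosome (chr18:60803848-60812652), was at 32.7, 43.4 and 60.5 FPKM in TGAC8 and 28.3, 34.8 and 59.5 FPKM in WT. Its log2 fold change was 0.19 (95% interval -0.19 to 0.56). H2-Aa, the α chain of I-A (chr17:34282744-34287823), was at 11.3, 17.5 and 26.1 FPKM in TGAC8 and 10.3, 13.1 and 27.3 FPKM in WT, a log2 fold change of 0.18 (-0.27 to 0.63). H2-Ab1, its β chain (chr17:34257689-34269419), was at 15.9, 21.2 and 28.8 FPKM in TGAC8 and 13.9, 17.3 and 31.8 FPKM in WT. In H2-Ab1 WT libraries 2 and 6 were above every TGAC8 library, and the log2 fold change of 0.10 (-0.28 to 0.48) turned to -0.016 with geometric scaling. H2-Eb1, the β chain of I-E (chr17:34305867-34316674), was at 5.94, 9.43 and 16.8 FPKM in TGAC8 and 6.34, 8.12 and 15.2 FPKM in WT. Its log2 fold change was 0.11 (-0.35 to 0.57), -0.0063 with geometric scaling and -0.0042 without TGAC8 library 5. H2-DMa and H2-DMb1, which exchange the peptides of class II molecules, were low. H2-DMa was at 0.632, 1.18 and 1.87 FPKM in TGAC8 and 0.462, 1.19 and 1.44 FPKM in WT, and H2-DMb1 at 0.168, 0.815 and 1.21 FPKM in TGAC8 and 0.253, 0.542 and 1.26 FPKM in WT.

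Class II varied as a block across mice. WT libraries 2 and 6 were the highest pair of WT libraries in 6 of 6 class II genes, and TGAC8 library 5 was among the highest pair of TGAC8 libraries in 6 of 6. The summed class II level was 67.9, 94.6 and 135 FPKM in TGAC8 and 64.3, 72.0 and 134 FPKM in WT. Leaving out WT library 2 gave log2 fold changes of 0.28 for Cd74, 0.30 for H2-Aa and 0.20 for H2-Ab1, and no class II gene was called in any fit that left out a library. The macrophage and monocyte markers, by contrast, were called higher in 10 of 12 cases, against 20.9% of all tested genes. Whether the 2 groups of genes differ in their response was not tested. Of the dendritic cell markers Zbtb46 and Clec9a were tested and neither was called, with summed levels of 3.77 to 6.36 FPKM in TGAC8 and 3.46 to 5.46 FPKM in WT, and the B cell marker Ighm stayed below the filter. The other markers of dendritic and B cells, and those of T and NK cells, were not analysed here.

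The X box, which is bound by the RFX complex that class II genes need, was searched on both strands as AGNAAC followed directly by NGNTG and was found for 2 of 4 class II genes with a window, H2-Eb1 and H2-DMb1, against 1.23% of tested genes. Its partner, the Y box core ATTGG, was in the windows of 4 of 4 class II and 11 of 11 class I genes, but also of 42.5% of tested genes. The X box of H2-Eb1 begins 92 bases before the start and is shown in capitals.
H2-Eb1 (not called, chr17:34305755-34305805, plus strand): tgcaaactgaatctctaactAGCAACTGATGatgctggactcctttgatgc

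Genes that serve the pathways but lie outside the name pattern were read from 4 lists. Of 12 genes of peptide loading and the proteasome, none was called higher, against 20.9% of all tested genes. Of the 12, 1 was called lower, against 4.65% of all tested genes. This was Canx, the chaperone calnexin, at a log2 fold change of -0.25 (limma adjusted p = 0.002). With geometric scaling 5 of the 12 were lower, against 10.8% of all tested genes. The subunits of the immunoproteasome, which interferon γ induces, were not called, with log2 fold changes of 0.50 for Psmb9, 0.18 for Psmb8 and -0.13 for Psmb10. Of 14 genes of class II control and processing 7 were called higher, or 50%, against 20.9% of all tested genes. The 7 were proteases of the endosome and lysosome (Ctss, Ctsb, Ctsd and Lgmn) and factors of the X and Y boxes (Rfxank, Nfyb and Nfyc). The rest of the list was not called, with log2 fold changes of -0.08 (Rfxap) to 0.58 (Cd86). It included the box factors Rfx5, Rfxap and Nfya and the protease Ctsl. With geometric scaling 4 of the 14 genes were called higher, against 9.74% of all tested genes. Ctss, cathepsin S, which trims the invariant chain, was at 10.7, 14.6 and 17.8 FPKM in TGAC8 and 6.50, 7.81 and 13.3 FPKM in WT, a log2 fold change of 0.80 (limma adjusted p = 3.56e-04). Lgmn, the protease legumain, was at 21.9, 24.2 and 25.6 FPKM in TGAC8 and 15.0, 16.3 and 19.3 FPKM in WT. For Lgmn, Ctsd and Ctsb every TGAC8 library was above every WT library, as in 4.79% of all tested genes. Rfxank, Nfyb and Nfyc differed by 0.38, 0.23 and 0.27 and lost the call with geometric scaling.

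Of 20 genes that sense viral nucleic acid or carry interferon signals, 5 were called higher (Ddx58, Dhx58, Tyk2, Socs3 and Traf3). Il10rb was the 1 gene called lower, against 4.65% of all tested genes. None of the 5 remained called with geometric scaling, where 9.74% of all tested genes were higher. On that scale 2 of the 20, Il10rb and Ticam1, were called lower, against 10.8% of all tested genes. Ddx58, the sensor RIG-I, was at 1.85, 2.04 and 2.77 FPKM in TGAC8 and 1.44, 1.67 and 2.004 FPKM in WT, a log2 fold change of 0.37 (limma adjusted p = 0.00706). Jak1 and Jak2, which are among the kinases of the receptors, differed by 0.02 each and were not called. Tyk2, a further one of them, differed by 0.34 (limma adjusted p = 0.0276), and 0.23 with geometric scaling. Of these 20 genes 25% were called higher, near the 20.9% of all tested genes. The share was also 25% in 32 further interferon-stimulated genes, of which 8 were called higher and none lower (Lgals3bp, Ly6a, Ube2l6, Lgals9, Trim30a, Ly6e, Samd9l and Sp100). With geometric scaling 2 of the 32, Lgals3bp and Ly6a, were called higher, against 9.74% of all tested genes, and none lower. Lgals3bp, a secreted binding protein of galectins, was at 9.73, 13.5 and 17.7 FPKM in TGAC8 and 6.72, 8.32 and 10.5 FPKM in WT. Rsad2, or viperin, was at 1.58, 2.54 and 3.80 FPKM in TGAC8 and 2.11, 2.87 and 3.23 FPKM in WT, and Iigp1, a GTPase of the family of Igtp, at 5.43, 10.1 and 21.1 FPKM in TGAC8 and 7.25, 11.4 and 34.7 FPKM in WT, and neither was called.

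The libraries carried the markers of LV myocardium. Of 9 cardiomyocyte markers 1 was called higher and 4 lower, against 20.9% and 4.65% of all tested genes. With geometric scaling 7 were lower, against 10.8% of all tested genes. The summed levels of these markers were 24820 to 30040 FPKM in TGAC8 and 30430 to 32970 FPKM in WT. Of 10 endothelial markers none was called, and of 5 erythrocyte markers none. The 5 genes that matched the pattern by name alone, namely H2-Ke6, Isg20l2, Irf2bp1, Irf2bp2 and Irf2bpl, had log2 fold changes of -0.07 to 0.24 and none was called with all libraries. Irf2bp1 passed the threshold without TGAC8 library 2 or 6 or WT library 4 (lowest limma adjusted p = 0.0234), Irf2bp2 without TGAC8 library 2 or 4 (0.0364) and Irf2bpl without TGAC8 library 2 (0.0328).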

How the data were processed

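RNA of the LV free wall was prepared with a low-input stranded total RNA kit, 1 library per mouse. The authors trimmed the single-end reads, aligned them to mm10 plus the sequence of the human cDNA with TopHat (TopHat2 2.1.1 in the submitters' processing notes), and deposited FPKM per library from Cufflinks 2.1.1. No source used here gives the annotation, the use of strand or any scaling between libraries. The columns of the deposited Cuffdiff comparison (fold changes and tests) were not used. Genotypes came from the sample labels, and each mouse was a replicate.

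Genotypes were compared by limma 3.58.1 (R 4.3.3) with an intensity trend and 2-sided tests, after 0.1 was added to each FPKM and log2 taken. Genes entered if they averaged 0.5 FPKM or more, and the procedure was tested on simulated data. Alternatives were pseudocounts of 1 and 0.01, the filter dropped or raised to 1 FPKM, geometric scaling, the library number as a block, array weights, an exact rank-sum test and 16 fits without 1 library each. The genes to name were, in each of the class I, class II and interferon groups, the 4 most abundant, the 4 largest called increases and decreases among genes averaging 1 FPKM or more in the higher group, and every gene without overlap between genotypes. Members, lists and elements were chosen with earlier results of these data known. One member enters the counts and sums but is not reported here. Positions are from GENCODE vM21 on mm10 and promoter windows from RefSeq.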

Additional observations from a re-analysis of the deposited data

Results flagged for a closer look

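Of 48 groups of 8 libraries examined (named genes and summed groups, by genotype), 4 held 1 library far from the other 7, and chance flags about 1 in 20 such groups. Ifit1bl2 was at 0.601 FPKM in TGAC8 library 4, against 0.796 to 0.957 FPKM in the other TGAC8 libraries. Oasl2 was at 5.50 FPKM in TGAC8 library 1, against 2.55 to 3.55 FPKM in the others. Ifi27 was at 7.53 FPKM in WT library 6, against 5.70 to 6.38 FPKM in the other WT libraries. The summed GTPases reached 105 FPKM in WT library 2, against 37.4 to 66.7 FPKM in the other WT libraries. The causes were not tested.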

How the results depend on the processing

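With geometric scaling, the number of genes called higher was 0 in class I, 9 among interferon genes and 1124 over all genes, and 1244 genes were called lower. With geometric scaling and the replicate block together, these numbers were 0, 8 and 920, with 1022 lower. With geometric scaling 1 member lay wholly above WT. The log2 fold changes of 14 of the 74 members changed sign with geometric scaling, none of them called on either scale and the lowest at -0.10 (Gbp4). Of the genes named by rule, H2-K1, H2-Ab1 and H2-Eb1 reversed with geometric scaling, with and without the block, to log2 fold changes of -0.0058, -0.016 and -0.0063. With libraries left out in turn H2-Eb1 ranged from -0.0042 (without TGAC8 library 5) to 0.22 (without WT library 6). When libraries were left out in turn, class I genes called higher numbered 1 to 5, and interferon genes 12 to 18 higher and 2 to 3 lower. Over all tested genes these fits called 2014 to 2654 higher and 469 to 553 lower. Members wholly above WT numbered 2 to 5 (5 without WT library 2: Tapbp, Ifitm3, Ifi27, Ifi27l2a and Ifnar2), and those wholly below WT 1 to 2 (2 without WT library 7: Ifit1bl2 and Ifngr2).

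The library numbers did not pair the mice. Deviations of equally numbered libraries correlated at -0.062 to 0.0067, and 0 libraries correlated best with their own number. With the replicate block, 2 class I genes and 11 interferon genes were called higher and 2 interferon genes lower, and 2017 and 427 over all genes. Other pseudocounts and filters left the counts at 2 for class I, 0 for class II and 15 higher and 3 lower for interferon genes. The array weights gave 17 and 2 for the interferon genes and the rank-sum test 14 and 2. FPKM without counts leaves the error of low genes such as Oas1a and Ifit1bl1 unknown beyond the spread between mice.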
